A study of Mus musculus with 15 samples.

Results

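Disallowed genes are genes that most tissues express and that mature pancreatic beta cells keep silent. The 10 genes examined here, Ldha, Slc16a1, Hk1, Pdgfra, Igfbp4, Cxcl12, Smad3, Oat, Maf and Arhgdib, were taken as known members of that class. They were chosen with earlier results of these data known. All were looked up among 21938 protein-coding genes of the mouse annotation (GRCm38, GENCODE release 21). A ChIP-seq peak was assigned to a gene's promoter when it overlapped by at least 1 bp a window of 1 kb on either side of any annotated start of a protein-coding transcript. It was assigned to the locus when it fell within the gene body or 20 kb either side. All 10 genes were found in the annotation.

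The silence of these genes serves the way beta cells sense glucose. Lactate dehydrogenase A and the monocarboxylate transporter encoded by Slc16a1 would let circulating lactate and pyruvate feed mitochondrial metabolism and trigger insulin release when glucose is low, and the high-affinity hexokinase Hk1 would already be saturated at low glucose levels. Acetylation of histone H3 at lysine 27 (H3K27Ac) marks active promoters and enhancers. Trimethylation of the same residue (H3K27Me3) is laid down by Polycomb repressive complexes and marks silenced genes, and a given lysine cannot carry both. The question the data address is which of these marks lay at the promoters of the disallowed genes, and whether that differed with diet.

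The chromatin came from pancreatic islets of adult male CBA mice in 3 diet groups. RD mice received regular chow, HFD mice a high-fat diet, and HFD-O304 mice the same high-fat diet formulated with O304, a compound described by the study as a pan-AMPK activator. Each diet had 2 replicates of each mark, from pooled islets, and the authors merged the replicates before calling peaks, so there is 1 peak list per mark and diet. No difference between diets below therefore has a replicate error or a test. Islets hold several cell types, and fewer cells carrying a mark cannot be told apart from less of the mark per cell.

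The lists held 16314 H3K27Ac peaks in RD islets, 21674 in HFD islets and 20305 in HFD-O304 islets, and 15517, 15438 and 22049 H3K27Me3 peaks in the same order. After removal of duplicates, the merged libraries kept 83773042, 95218072 and 84694188 fragments for H3K27Ac and 74870300, 54166902 and 57324419 for H3K27Me3. Duplicates took 17.2% to 18.4% of H3K27Ac fragments and 45.7% to 56.9% of H3K27Me3 fragments. Peak strength is given as fold, the mean fragment coverage of a peak over the coverage that the same fragments would give if spread evenly. The weakest callable fold differed between lists, at 2.40, 2.26 and 2.37 for H3K27Ac in the 3 diets, and at 2.74, 3.10 and 2.97 for H3K27Me3. A promoter without a peak had no long enough stretch over that limit, which is not the same as having no mark. The q value of a peak is the caller's p-value against even coverage, adjusted for the false discovery rate, and is given as −log10 q, so that larger values are stronger. Series of 3 values without a diet follow the order RD, HFD, HFD-O304. Ranges in parentheses after a fold are 95% Poisson intervals on the estimated fragments of the peak and cover counting error only. Of 8 beta cell markers, 6 had an H3K27Ac promoter peak in RD islets, 7 in HFD islets and 6 in HFD-O304 islets. The shares over all protein-coding genes were 46.9%, 52.8% and 52.2%. Iapp lacked a peak in each diet, Slc2a2 in RD and Ins1 in HFD-O304.

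Most of the disallowed genes carried H3K27Me3 at the promoter. The mark was called at 7 of the 10 in RD, where 7.59% of all protein-coding genes had it, at 8 in HFD against 9.45%, and at 7 in HFD-O304 against 10.0%. The same 7 genes, Ldha, Slc16a1, Hk1, Pdgfra, Igfbp4, Cxcl12 and Maf, had it in each diet, a state found at 5.94% of all genes. The calls were near the limits of the lists. At a stricter limit, a −log10 q of at least 5, only Pdgfra kept H3K27Me3 in each diet (1 of 10, against 0.775% of all genes), and with a common fold limit for the 3 lists 4 of 10 did, against 2.93%. H3K27Ac was called at 4 of the 10 in RD, against 46.9% of all genes, at 4 in HFD against 52.8%, and at 5 in HFD-O304 against 52.2%. Slc16a1, Hk1 and Smad3 had H3K27Ac in each diet, as did 45.3% of all genes. Both marks were called at the promoter of 2 disallowed genes in RD islets, 3 in HFD islets and 4 in HFD-O304 islets, against 2.22%, 3.53% and 3.04% of all genes. Of all genes with an H3K27Me3 promoter peak, 29.3%, 37.4% and 30.4% also had H3K27Ac. Among the disallowed genes with H3K27Me3 it was 2 of 7, 3 of 8 and 4 of 7. The RD and HFD counts were thus near the share of all H3K27Me3-marked genes. At the common fold limit the RD count fell from 2 to 0, and at a −log10 q of at least 5 no gene of the 10 had both marks in any diet. Arhgdib had neither mark in any diet, as did 37.7% of all genes.

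**Figure D1:**
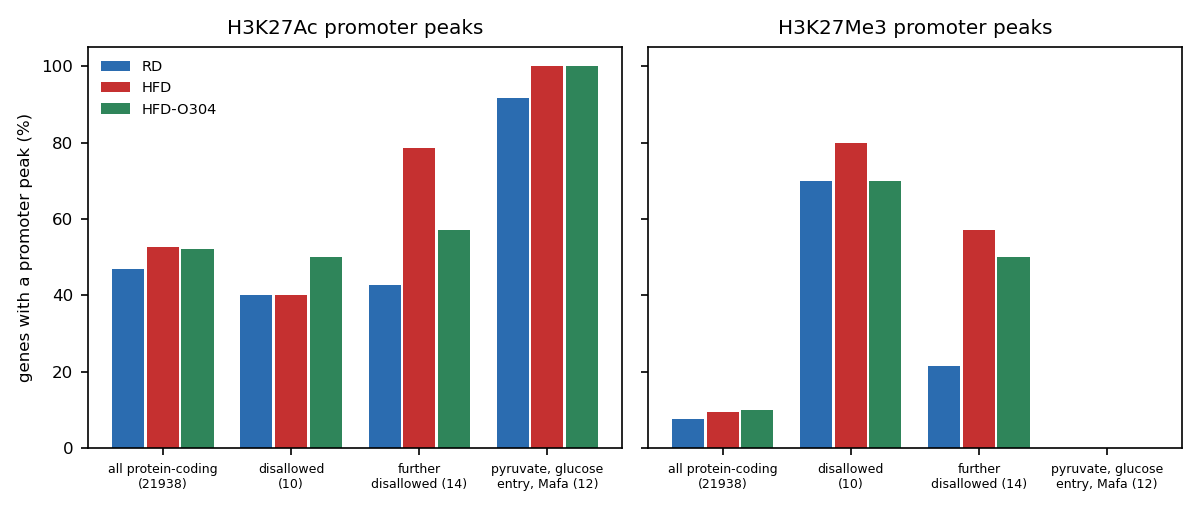
Bars give the percentage of genes (y axis) with an H3K27Ac (left) or H3K27Me3 (right) promoter peak in RD, HFD and HFD-O304 islets, for all 21938 protein-coding genes, the 10 disallowed genes, 14 further disallowed genes and a list of 12 made of pyruvate and glucose entry genes and Mafa; there is 1 list per bar and so no error bar. H3K27Me3 was called at 7 to 8 of the 10 disallowed genes, at under 11% of all genes and at none of the list of 12.

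The promoters shown next stand for the different states. Each run is the 250 bases directly upstream of a RefSeq start site on GRCm38.p6, printed 5′ to 3′ on the strand of the gene, with every CpG dinucleotide in capitals. Ldha had H3K27Me3 alone, Slc16a1 and the inner Hk1 promoter had both marks in each diet, Igfbp4 had H3K27Ac in HFD and HFD-O304 but not in RD, Smad3 had H3K27Ac alone, and Arhgdib had neither. These states refer to the window of 1 kb on either side of the starts. The printed bases themselves overlapped no H3K27Me3 peak in RD for Ldha and Slc16a1, and no H3K27Ac peak in HFD-O304 for Smad3, where the peaks began downstream of the run.
Ldha (chr7:46845554-46845803, plus strand): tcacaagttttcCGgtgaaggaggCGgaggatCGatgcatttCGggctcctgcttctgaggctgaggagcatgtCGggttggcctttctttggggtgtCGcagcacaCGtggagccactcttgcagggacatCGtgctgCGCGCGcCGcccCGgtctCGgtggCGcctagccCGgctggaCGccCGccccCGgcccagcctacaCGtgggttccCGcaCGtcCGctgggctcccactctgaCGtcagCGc
Slc16a1 (chr3:104638414-104638663, plus strand): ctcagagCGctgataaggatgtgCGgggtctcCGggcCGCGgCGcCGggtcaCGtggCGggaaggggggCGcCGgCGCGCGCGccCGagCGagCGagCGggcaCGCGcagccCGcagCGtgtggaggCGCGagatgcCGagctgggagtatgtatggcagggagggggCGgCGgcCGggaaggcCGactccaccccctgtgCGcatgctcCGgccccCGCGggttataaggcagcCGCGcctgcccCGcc
Hk1, inner start (chr10:62340422-62340671, minus strand): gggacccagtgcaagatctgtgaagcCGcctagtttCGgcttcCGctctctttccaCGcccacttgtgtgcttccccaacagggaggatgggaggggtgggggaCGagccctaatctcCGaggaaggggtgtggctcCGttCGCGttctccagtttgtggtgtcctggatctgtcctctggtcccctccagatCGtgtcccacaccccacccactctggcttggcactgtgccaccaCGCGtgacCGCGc
Igfbp4 (chr11:99040994-99041243, plus strand): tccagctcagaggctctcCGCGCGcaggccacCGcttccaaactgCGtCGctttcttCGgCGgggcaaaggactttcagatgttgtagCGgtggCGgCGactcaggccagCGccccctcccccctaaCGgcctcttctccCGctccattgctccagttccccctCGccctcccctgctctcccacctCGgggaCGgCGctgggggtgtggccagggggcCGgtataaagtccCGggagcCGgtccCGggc
Smad3 (chr9:63757995-63758244, minus strand): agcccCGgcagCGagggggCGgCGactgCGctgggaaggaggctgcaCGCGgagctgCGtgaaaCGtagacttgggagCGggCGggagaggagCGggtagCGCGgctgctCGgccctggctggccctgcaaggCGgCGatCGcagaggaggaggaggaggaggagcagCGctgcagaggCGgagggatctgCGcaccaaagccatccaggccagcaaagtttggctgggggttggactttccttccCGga
Arhgdib (chr6:136941900-136942149, minus strand): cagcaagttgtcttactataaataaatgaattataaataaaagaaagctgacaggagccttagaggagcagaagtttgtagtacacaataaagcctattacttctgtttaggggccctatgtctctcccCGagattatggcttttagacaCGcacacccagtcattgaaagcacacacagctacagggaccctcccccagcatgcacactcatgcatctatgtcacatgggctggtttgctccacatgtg

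CpG counts ranged widely among promoters with the same mark. The runs above hold 25 CpG for Ldha, 37 for Slc16a1, 14 for the inner Hk1 start, 22 for Igfbp4, 22 for Smad3 and 2 for Arhgdib, where the median of 20145 promoters is 10 with quartiles at 3 and 19. Of the genes not printed, Pdgfra has 4, Cxcl12 14 and Oat 14. Entries were matched for 9 of the 10 genes, all but Maf. Smad3 and Igfbp4 thus have the same CpG count and GC content (69.2%), and Igfbp4 had H3K27Me3 in each diet while Smad3 had none. Among the 2966 genes with 20 to 29 CpG at their CpG-richest entry, 82.2% had an H3K27Ac promoter peak in RD and 8.77% an H3K27Me3 peak, and Ldha, in that class, had only the latter. Pdgfra is CpG-poor by this count, and of the 5035 genes with 0 to 4 CpG 3.52% had H3K27Me3 in RD. The counted Pdgfra bases themselves overlapped an H3K27Me3 peak in HFD, but none in RD or HFD-O304. In RD its promoter peaks began downstream of them, and CpG under those peaks were not counted.

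**Figure D2:**
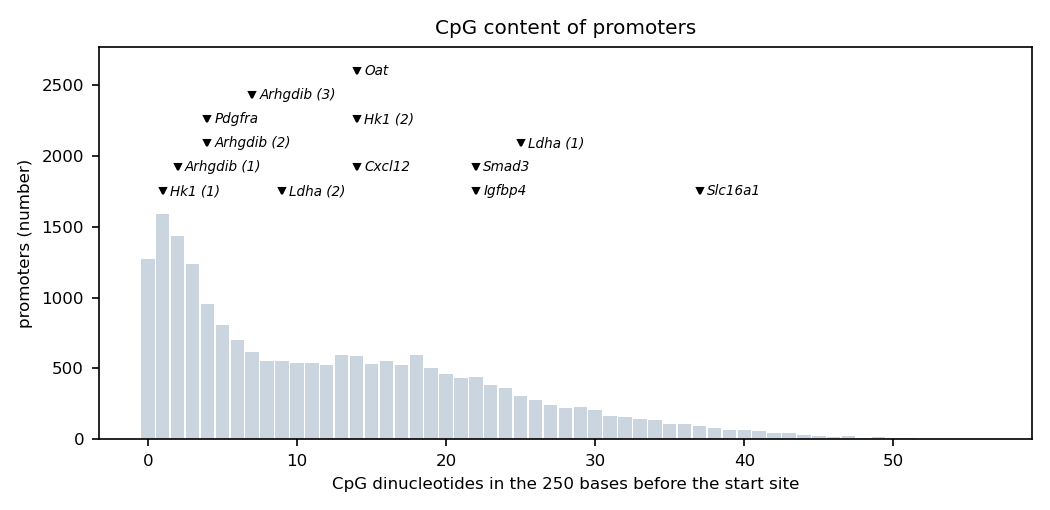
Grey bars give the number of promoters (y axis) by the number of CpG dinucleotides in the 250 bases before the RefSeq start (x axis), over 20145 promoters. Triangles place the disallowed genes on the x axis only, at heights chosen for legibility, with the entry number where a gene has more than 1 start; Slc16a1 lies farthest right at 37 and the outer Hk1 start farthest left at 1.

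Some short motifs were counted on both strands of the same 250 bases. ACGTG, the core of the hypoxia response element, has 5 matches at 3 sites in the Ldha run and 2 matches at 1 site in Slc16a1. It occurs in 18.0% of all promoters at least once. CACGTG, an E-box that contains ACGTG and is its own reverse complement, occurs 2 times in Ldha and 1 time in Slc16a1, and in 6.79% of all promoters. GGGCGG, the GC box, occurs 5 times in Cxcl12, 2 times each in Ldha and Smad3, 1 time in Slc16a1 and in an inner Arhgdib run, and in 44.1% of promoters. CCAAT occurs 2 times in Oat and in 35.0% of promoters. TATAA has 3 matches in Arhgdib, at 2 sites, 2 in Slc16a1, at 1 site, and 1 in Igfbp4, and occurs in 19.6% of promoters. These are letter matches and not measured binding sites.

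Ldha, on chromosome 7 (46841475 to 46855627), encodes the subunit of lactate dehydrogenase that favours lactate formation. It carried H3K27Me3 over the cluster of start sites that lies from 4364 bp inside the gene, and its printed promoter lies immediately before that cluster. The peak there had a fold of 3.20 (2.78 to 3.68) in RD, 3.69 (3.36 to 4.04) in HFD islets and 3.98 (3.50 to 4.51) in HFD-O304 islets. The 3 intervals overlapped, with HFD-O304 highest and RD lowest. This peak spanned 1591 bp in RD islets, 4336 bp in HFD islets and 2031 bp in HFD-O304 islets, and its −log10 q values were 4.09, 4.26 and 5.91. A second peak lay at the gene's outermost start, 539 bp long in RD islets, 1589 bp in HFD islets and 7233 bp in HFD-O304 islets. Together the promoter peaks covered 2130, 5925 and 9264 bp. In HFD a separate 2508-bp peak ended 1640 bp upstream of the gene, outside the promoter window, and is not in that sum. In HFD-O304 the same bases were part of the 7233-bp peak, which counts in full. Over the whole locus, H3K27Me3 peaks covered 3511, 9471 and 11932 bp. A further peak 7632, 7932 and 7176 bp upstream of the gene was called in the respective diets, at folds of 3.12, 3.44 and 3.37. No H3K27Ac peak lay within 20 kb in any diet, and the nearest ones were 44833 to 44966 bp from a start site. In HFD-O304 alone a 221-bp H3K27Me3 peak lay at the promoter of the neighbouring Ldhc, the testis-type subunit.

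Slc16a1, on chromosome 3 (104638668 to 104658462), encodes MCT1, which carries lactate and pyruvate across the plasma membrane. Its promoter had both marks in each diet. H3K27Ac had a fold of 2.98 (2.53 to 3.49) in RD, 2.97 (2.52 to 3.49) in HFD islets and 3.23 (2.77 to 3.76) in HFD-O304 islets, with −log10 q values of 5.10, 6.10 and 6.85, the strongest H3K27Ac peaks of the 10 genes in each list. H3K27Me3 had a fold of 2.90 (2.25 to 3.68), 3.21 (2.57 to 3.97) and 3.32 (2.69 to 4.04). The intervals of the 3 diets overlapped in both marks. The H3K27Me3 peak, 579, 920 and 964 bp long, overlapped the H3K27Ac peak, 1139, 997 and 1169 bp long, and covered 50.3%, 79.9% and 78.5% of its bases. Peaks of H3K27Me3 12001 bp upstream in RD and 12037 bp upstream in HFD-O304 consisted entirely of repeat-masked sequence.

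Hk1, on chromosome 10 (62268855 to 62379908, minus strand), encodes the low-Km hexokinase. It has 10 annotated start sites, and both marks lay over, or within 31 bp of, an inner one 39366 bp downstream of the gene's 5′ end, which falls inside the printed run. No mark was called at the 5′ end itself, whose 250 upstream bases hold 1 CpG. H3K27Ac at the inner start was weak, at 2.58 (2.03 to 3.23) in RD, 2.40 (2.04 to 2.81) in HFD islets and 2.60 (2.11 to 3.16) in HFD-O304 islets, or 1.06 to 1.10 times the weakest callable fold. H3K27Me3 had a fold of 3.07 (2.53 to 3.69), 3.70 (3.29 to 4.13) and 3.90 (3.51 to 4.33). The H3K27Me3 peak was 924 bp long in RD islets, 2886 bp in HFD islets and 2963 bp in HFD-O304 islets, and in each diet it held 100% of the bases of the H3K27Ac peak.

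**Figure D3:**
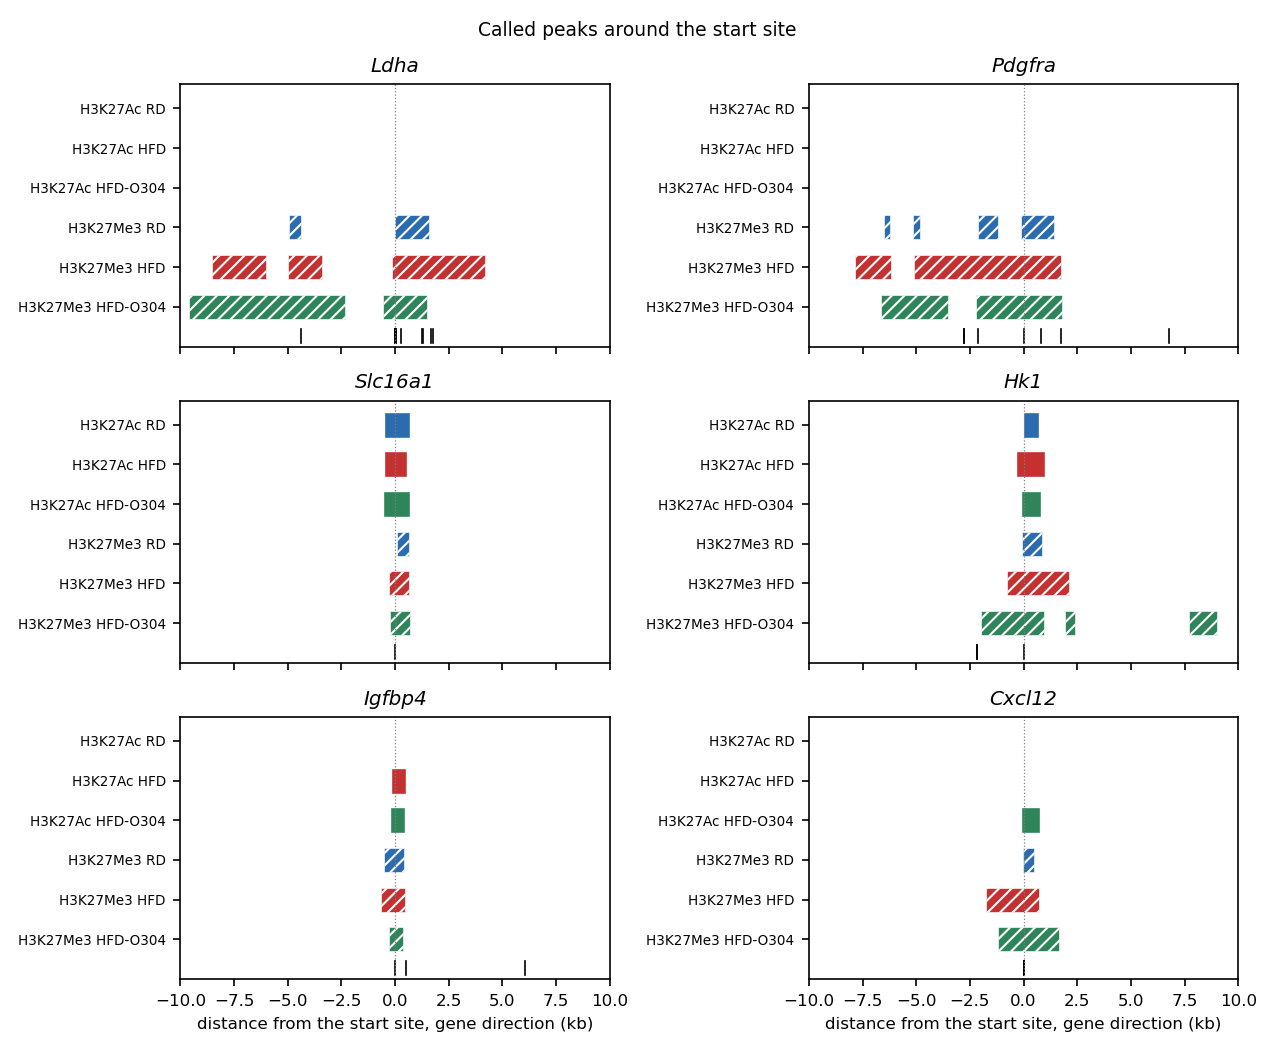
Called peaks (bars) of H3K27Ac (solid) and H3K27Me3 (hatched) by diet around 6 disallowed genes, on an x axis of distance in kb from the start site covered by most lists, with transcription running to the right; black ticks at the foot of each panel mark annotated start sites. Ldha and Pdgfra show H3K27Me3 only, Slc16a1 and Hk1 show both marks in each diet over the same bases, and Igfbp4 and Cxcl12 show H3K27Ac in some diets only.

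Pdgfra, Igfbp4, Cxcl12 and Smad3 act in signalling between cells. Pdgfra, on chromosome 5 (75152292 to 75198215), encodes a receptor for platelet-derived growth factor that is typical of mesenchymal cells. Its strongest H3K27Me3 promoter peak had a fold of 3.51 (2.94 to 4.15) in RD, 3.94 (3.67 to 4.22) in HFD islets and 4.03 (3.68 to 4.40) in HFD-O304 islets, with −log10 q values of 5.76, 5.24 and 6.09. It was the highest of the 10 genes in each list, and the only one of the 10 with a −log10 q of at least 5 in each diet. In RD the locus held 4 separate peaks of 296 to 1521 bp, in HFD 2 peaks, the larger 6829 bp long and covering 5 of 7 start sites, and in HFD-O304 2 peaks of 3105 and 4031 bp. In all, 3080, 8549 and 7136 bp of the locus were covered. The nearest H3K27Ac peak lay 107244 to 107406 bp from a start site. Among 6 other mesenchymal markers none had an H3K27Ac promoter peak in any diet. H3K27Me3 was called at 0 in RD islets, 1 in HFD islets and 3 in HFD-O304 islets (Col1a1, Col1a2 and Acta2). The shares over all genes were 7.59%, 9.45% and 10.0%. The part of mesenchymal cells in the Pdgfra signal was not tested.

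Igfbp4, on chromosome 11 (99041244 to 99054392), encodes a secreted protein that binds insulin-like growth factors. H3K27Me3 lay over its start at a fold of 3.13 (2.59 to 3.74) in RD, 3.66 (3.03 to 4.39) in HFD islets and 3.93 (3.12 to 4.88) in HFD-O304 islets, in peaks of 943, 1100 and 675 bp. H3K27Ac was not called in RD and was called in HFD at 2.85 (2.28 to 3.52) and in HFD-O304 at 2.80 (2.23 to 3.48). The H3K27Ac peaks, 600 and 644 bp long, fell almost wholly within the H3K27Me3 peaks, at 98.7% and 91.6% of their bases. This pattern of H3K27Ac in HFD and HFD-O304 but not RD was shared with 4.56% of all genes.

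Cxcl12, on chromosome 6 (117168535 to 117181367), encodes the chemokine ligand of CXCR4. H3K27Me3 at its start had a fold of 3.22 (2.51 to 4.07) in RD, 3.17 (2.77 to 3.61) in HFD islets and 3.70 (3.31 to 4.13) in HFD-O304 islets. The peak was 543 bp long in RD islets, 2467 bp in HFD islets and 2842 bp in HFD-O304 islets. H3K27Ac was called only in HFD-O304, at 2.59 (2.09 to 3.16), in an 807-bp peak that lay entirely inside the H3K27Me3 peak, and 1.88% of all genes had H3K27Ac in that diet alone. Of the genes with an H3K27Ac promoter peak, 4.74%, 6.69% and 5.82% also had H3K27Me3 in RD, HFD and HFD-O304. Smad3 and Oat were the members with H3K27Ac and no H3K27Me3 in RD.

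Smad3, on chromosome 9 (63646767 to 63757994, minus strand), encodes a transcription factor that carries signals from TGF-beta and activin receptors. It was the only one of the 10 with H3K27Ac in each diet and no H3K27Me3, a pattern it shared with 42.7% of all genes. The fold was 2.83 (2.40 to 3.30) in RD, 2.47 (1.89 to 3.16) in HFD islets and 2.77 (2.11 to 3.57) in HFD-O304 islets. The peak was 1251 bp long in RD islets, 494 bp in HFD islets and 470 bp in HFD-O304 islets, so it was longest in RD. The nearest H3K27Me3 peak lay 119163 to 169629 bp away. Bbs4, Ndufs6 and Aldoa had the nearest folds among genes of this pattern.

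Oat, on chromosome 7 (132557478 to 132576398, minus strand), encodes mitochondrial ornithine aminotransferase. Its marks were few and at the edge of detection. H3K27Ac was called only in RD, as a 326-bp peak of fold 2.67 (1.90 to 3.65), a pattern found at 0.360% of all genes. H3K27Me3 was called only in HFD, at 3.14 (2.53 to 3.86) in a 1006-bp peak that ended 225 bp upstream of the start, a pattern found at 0.985% of all genes. A second HFD peak of 735 bp lay inside the gene. The combination was shared by 4 genes, Oat included. The annotated body of Fgfr2 spans the Oat locus, so these peaks also lie within Fgfr2.

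Maf, on chromosome 8 (115682942 to 115707794, minus strand), encodes a large Maf transcription factor related to the beta cell factor MafA. It had H3K27Me3 in each diet, at 2.98 (2.58 to 3.43) in RD, 3.66 (3.29 to 4.07) in HFD islets and 3.15 (2.30 to 4.22) in HFD-O304 islets. It had a single peak of 1621 bp in RD and of 3217 bp in HFD, and 2 peaks of 467 and 957 bp in HFD-O304. The nearest H3K27Ac peak was at least 769176 bp away in each diet. Mafa itself had H3K27Ac at folds of 3.17, 2.92 and 3.55 and no H3K27Me3.

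Arhgdib, on chromosome 6 (136923655 to 136941899, minus strand), is a gene known for its expression in blood cells. No promoter peak of either mark was called, and the one peak in its surroundings was a 302-bp H3K27Me3 peak in RD, 17025 bp outside the gene. Of 6 haematopoietic markers, Coro1a alone had promoter peaks, 1 of each mark and both in HFD-O304. The runs before its 3 RefSeq starts hold 2, 4 and 7 CpG.

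**Figure D4:**
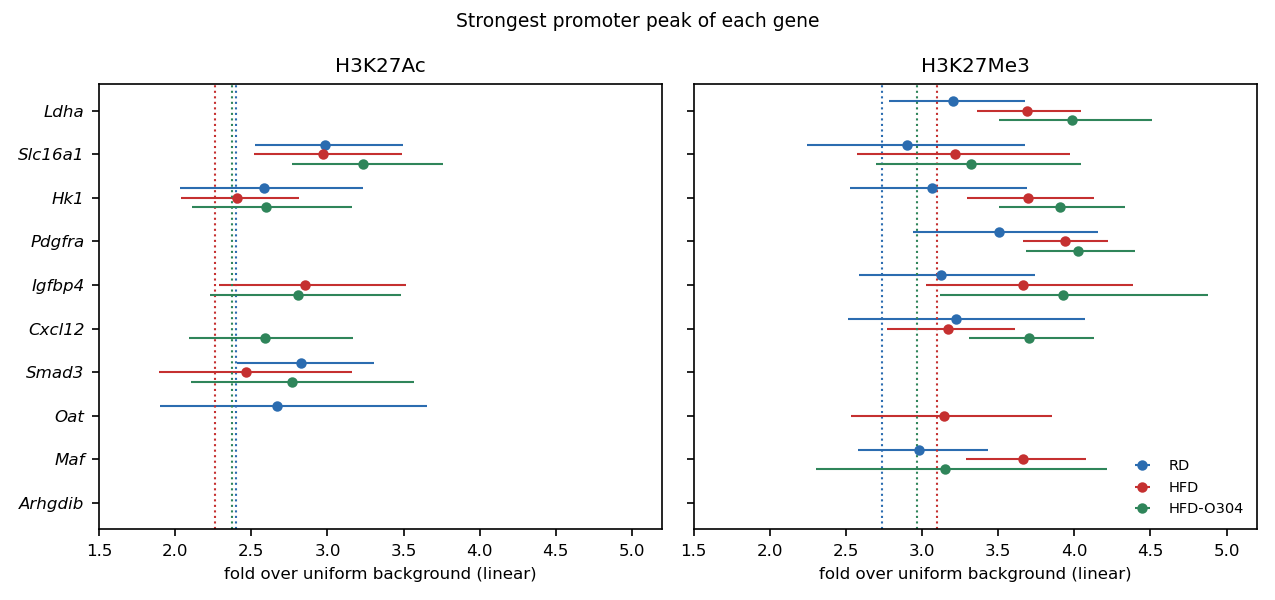
Fold over uniform background (x axis, linear) of the strongest H3K27Ac (left) and H3K27Me3 (right) promoter peak of each disallowed gene by diet; lines are 95% Poisson intervals of the merged list, dotted verticals mark the lowest fold called in each list, and a missing point means that no peak was called. For each gene the intervals of the diets overlap, and the H3K27Ac points of Hk1, Cxcl12, Oat and, in HFD, Smad3 lie close to the limits.

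Calls that differed between diets could not be told apart from counting error with these lists. Igfbp4, Cxcl12 and Oat differed in the H3K27Ac call, as did 10.3% of all genes, and Oat alone differed in the H3K27Me3 call, as did 6.27%. Pairing each diet with a call against each diet without one gave 8 pairs, and in 8 of 8 the lower bound of the called peak's interval lay at or under the weakest callable fold of the other list. The 8 pairs came from only 4 combinations of gene and mark. The lists do not give the coverage at a promoter without a call, so its level was not compared. These differences were therefore not resolved, and counting error as their source was not tested.

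Where both diets had a promoter peak, H3K27Me3 fold was higher in HFD than in RD at 6 of 7 disallowed genes, with a median ratio of 1.15, and in HFD-O304 than in RD at 7 of 7, with the same median ratio of 1.15. Over all genes with a peak in both lists the shares were 96.4% of 1401 and 92.8% of 1396, with median ratios of 1.21 and 1.16, so the whole H3K27Me3 lists were shifted in this direction. HFD-O304 exceeded HFD at 6 of 7 disallowed genes, with a median ratio of 1.06, against 32.7% of 1760 genes and a ratio of 0.965. For no disallowed gene and neither mark did the intervals of any 2 diets separate. For H3K27Ac only 3, 3 and 4 disallowed genes could be compared. Over all genes the H3K27Ac intervals separated at 3.01% between HFD and RD, 2.94% between HFD-O304 and RD and 1.02% between HFD-O304 and HFD. For H3K27Me3 they separated at 16.3%, 11.5% and 2.95% of all genes in the same order. The RD list was the deepest of the H3K27Me3 lists and had the lowest callable fold, and the part of depth and duplicates in these shifts was not tested.

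H3K27Me3 width varied more than fold. Summed over the promoter peaks of a gene, it was larger in HFD than in RD at 7 of 7 disallowed genes, with a median ratio of 2.76. Of the 1303 genes with a promoter peak in each diet, 79.7% were wider in HFD, with a median ratio of 1.57. HFD-O304 exceeded RD at 5 of 7, the exceptions being Igfbp4 and Maf, against 79.8% of all such genes, with a median ratio of 2.88 against 1.54. Between HFD-O304 and HFD the median ratios were 1.04 and 1.00. The largest widths were those of Ldha and Pdgfra, and in HFD and HFD-O304 the smallest were those of Slc16a1 and Igfbp4. For H3K27Ac only Slc16a1, Hk1 and Smad3 could be compared, and only Hk1 was wider in HFD than in RD, against 71.8% of 9928 genes. A promoter peak counted in full in these sums, and a separate peak beyond the window did not count. By bases covered at the locus, H3K27Me3 was wider in HFD than in RD at 6 of 7 disallowed genes, against 61.7% of 4972 genes. The median ratios were 2.70 and 1.14. These locus widths depended on the window and the limit. Over all 10 genes the median bases covered were 933.5, 2104 and 1592.5. In the gene body alone they were 536, 719 and 585.5. At a common fold limit they were 0, 2104 and 1218.

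**Figure D5:**
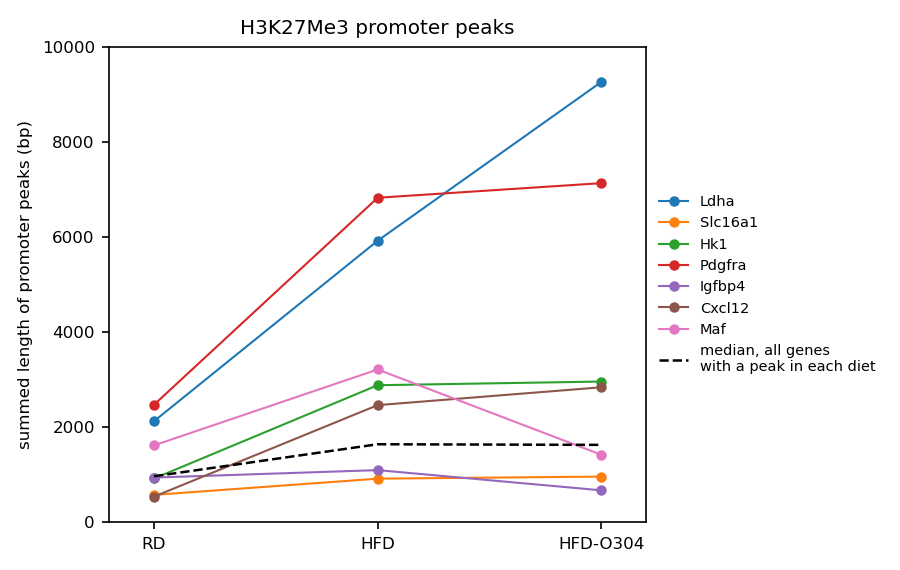
Summed length in bp of the H3K27Me3 promoter peaks (y axis) in RD, HFD and HFD-O304 (x axis) for the 7 disallowed genes with a peak in each diet, with the median of all 1303 such genes dashed; lines join the same gene, and there is 1 merged list per diet and no error. Ldha goes from 2130 to 9264 bp and the all-gene median from 971 to 1631 bp. A separate 2508-bp Ldha peak in HFD, outside the promoter window, is not counted.

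The H3K27Ac peaks of the disallowed genes were modest ones. Those called had a median fold of 2.75 in RD, 2.66 in HFD islets and 2.77 in HFD-O304 islets, where all promoter peaks of the lists had 3.13, 3.21 and 3.26. Their H3K27Me3 peaks had medians of 3.13, 3.66 and 3.73, against 3.05, 3.59 and 3.43. At a stricter limit, −log10 q of at least 5, H3K27Ac remained at Slc16a1 in each diet and at Igfbp4 in HFD, and H3K27Me3 remained at Pdgfra in each diet and, in HFD-O304, also at Ldha, Hk1 and Igfbp4. That limit left H3K27Me3 at 1 of 10 in RD islets, 1 in HFD islets and 4 in HFD-O304 islets, against 1.27%, 2.48% and 2.43% of all genes, and H3K27Ac at 1, 2 and 1, against 31.0%, 41.3% and 39.5%. With a common H3K27Me3 fold limit of 3.10 in the 3 diets, Slc16a1, Hk1 and Maf lost their RD call, leaving 4 of 10 in RD against 3.38% of all genes.

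Within the gene body and 20 kb either side, H3K27Me3 was called at 8, 8 and 7 of the 10 genes across the 3 diets in that order, against 29.9%, 30.6% and 36.4% of all genes, and H3K27Ac at 4, 4 and 5, against 63.4%, 69.5% and 68.0%. Every one of the 13 H3K27Ac peaks at these loci was a promoter peak. With 50 kb on either side H3K27Ac was called at 5, 6 and 8 of the 10 genes, against 73.2%, 78.4% and 76.7% of all genes, so at this window the HFD-O304 count was no longer below the share of all genes.

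The promoter patterns of the genes with H3K27Me3 in each diet were held by a small share of all genes. H3K27Me3 in each diet was itself found at only 1303 genes (5.94%). H3K27Me3 in each diet with no H3K27Ac, the state of Ldha, Pdgfra and Maf, was found at 686 of those 1303 genes (3.13% of all genes). By distance of log2 fold over the 3 H3K27Me3 lists, the nearest to Ldha were Slc7a7, Plch2 and Hoxa13, to Pdgfra Barhl2, Spag6 and Grhl2, and to Maf Myb, Bmp7 and Frem2. Both marks in each diet, the state of Slc16a1 and Hk1, were found at 261 of the 1303 (1.19% of all genes). Over all 6 lists the nearest to Slc16a1 were Sult4a1, Wwc2 and Chsy3, and to Hk1 Gad1, Nefm and Tgif2. The pattern of Igfbp4 was found at 108 genes and that of Cxcl12 at 91.

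A further 14 genes that are often counted as disallowed were described by the same rule. They were taken from general knowledge, but with earlier results of these data known. H3K27Me3 was called at 3 of them in RD islets, 8 in HFD islets and 7 in HFD-O304 islets, against 7.59%, 9.45% and 10.0% of all genes, and H3K27Ac at 6, 11 and 8, against 46.9%, 52.8% and 52.2%. The H3K27Me3 call differed between diets at 7 of the 14, against 6.27% of all genes, and the H3K27Ac call at 6, against 10.3%. In 22 of 26 pairs of a diet with and a diet without the call, the interval of the called peak reached the weakest callable fold of the other list. The 4 others were H3K27Me3 calls absent in RD, at Acot7 in HFD and in HFD-O304 and at Lmo4 and Zfp36l1 in HFD. Ndrg2 and Nfib had H3K27Me3 in each diet, with Nfib, a developmental transcription factor, the higher at folds of 3.19, 3.93 and 3.82. Acot7, an acyl-CoA thioesterase, had neither mark in RD and both in HFD and HFD-O304, with H3K27Me3 at 3.75 and 3.57. Lmo4, Mgst1 and Zfp36l1 likewise had H3K27Me3 in HFD and HFD-O304 and not in RD, Yap1 and Rest in HFD only, and Cd302 in RD and HFD-O304. The H3K27Ac call differed between diets at Acot7, Itih5, Tgm2, Cd302, Aass and Cat. Highest among their H3K27Ac folds were Ndrg2 at 3.19 in HFD-O304 and Cat at 2.95 in HFD.

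A list of 12 genes holds those for the routes that beta cells use for glucose and pyruvate, together with the beta cell transcription factor Mafa. H3K27Ac was called at 11 of 12 in RD islets and at 12 of 12 in HFD islets and in HFD-O304 islets, against 46.9%, 52.8% and 52.2% of all genes. H3K27Me3 was called at 0 of 12 in each diet, against 7.59%, 9.45% and 10.0%. The difference from the disallowed genes was not tested, and this list too was chosen with earlier results of these data known. Mpc2, a subunit of the mitochondrial pyruvate carrier, was highest at 3.52, 4.01 and 4.05, followed by Gpd2, of the glycerol phosphate shuttle, at 3.42, 3.98 and 3.91. Slc2a2, the glucose transporter GLUT2, was the one whose call differed, absent in RD and present at 2.54 in HFD islets and 2.73 in HFD-O304 islets. Ldhb, the other lactate dehydrogenase subunit, had H3K27Ac at 2.89, 2.69 and 2.82, while Ldha had H3K27Me3 alone.

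Markers of other cell types that islet preparations can hold had few H3K27Ac promoter peaks. None of 4 acinar or 6 mesenchymal markers had one in any diet, 1 of 5 endothelial markers had one in RD (Flt1), 1 of 6 haematopoietic markers in HFD-O304, and 1, 1 and 2 of 3 ductal markers in RD, HFD and HFD-O304. Neither of 2 delta cell markers had one. Peaks reported at the disallowed genes were not matched to a cell type.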

How the data were processed

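Chromatin immunoprecipitation sequencing of 15 samples was deposited: 2 marks in 3 diets with 2 replicates each, and 3 inputs, for which no peak list was used. The authors mapped paired-end reads to GRCm38 (Ensembl release 96) with bowtie2, merged replicates within a group and used MACS2 (version 2.1.2) in broad mode without a control or local background. The deposited headers give a q cutoff of 0.01 and 1 fragment kept per position. The deposited lists give, per peak, the mean pileup (a coverage signal not scaled to depth), −log10 of the p and q values, and a fold ratio computed by the caller, in which the authors' caller adds 1 to numerator and denominator.

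Fold here is pileup over uniform background, the kept fragments of the header times fragment size over a genome of 1.87e+09 bases. The 95% Poisson intervals rest on pileup times peak length over fragment size. They assume independent fragments, and peaks were selected for passing a threshold, which favours high values. Overlaps were computed in Python (pandas 2.3.3, numpy 2.4.6, scipy 1.17.1, pysam 0.24.0) and tested on simulated peaks. Promoter sequences came from RefSeq. The genes and gene lists were chosen with earlier results of these data known. All 10 genes are named; of the other lists, those whose call differed between diets and the highest folds, with further genes named after their values were seen. No test between diets was made, since each diet had 1 list per mark. A few results of single genes are not reported here.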

Additional observations from a re-analysis of the deposited data

How the results depend on the processing

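No paired analysis was possible because the authors merged the replicates before calling peaks. Leaving out 1 replicate was not done, since no list holds a single one. Over 32 results and 152 alternative values, 116 stayed close to the reported value and 36 moved. The settings for genes with both marks, or with a mark in each diet, were added after seeing the data. A limit of −log10 q of at least 5 gave 1, 2 and 1 genes with an H3K27Ac promoter peak in the diets in the order RD, HFD, HFD-O304, and 1, 1 and 4 with H3K27Me3, with 1 and 3 genes differing between diets for the 2 marks. It left 1 gene with H3K27Ac and 1 with H3K27Me3 in each diet, and 0 genes with both marks in RD, HFD, HFD-O304 or each diet. At the locus it gave 1, 2 and 1 for H3K27Ac and 1, 2 and 4 for H3K27Me3. A common fold limit per mark left H3K27Me3 at 4 genes in RD, at the promoter and at the locus, made 4 genes differ between diets, left 4 with H3K27Me3 in each diet, and left 0 with both marks in RD and 0 in each diet. A locus of 50 kb either side raised H3K27Ac in HFD-O304 to 8 genes. The median bases covered by H3K27Me3 moved in each diet with the gene body alone, and in RD and HFD-O304 with the common fold limit. The 5′ end alone dropped Hk1 from both marks, which left 1 gene with both marks in RD and 1 in each diet. It moved no other count here by over 1.5 times, and neither did start-site windows of 500 bp and 2 kb, removal of repeat-rich peaks or a 50% overlap at the promoter. Presence and width depend on each list's own detection limit, and folds near that limit are the least certain.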
